A study of Homo sapiens with 6 samples.

Results

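The p53 family and its regulators were followed through 7 genes, TP63, TP73, MDM2, MDM4, PPM1D, ATM and CHEK2, of 19663 protein-coding genes. Their regions were chosen by position alone. Regions that reached within 2 kb of where a protein-coding transcript of the gene begins were taken as promoter regions. Those elsewhere were taken as distal regions of the gene if no protein-coding start site of another gene was nearer to their middle and the distance was at most 100 kb. This gave 34 of the 108542 accessible regions of the table, 11 at promoters and 23 distal.

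The regions come from ATAC-seq, in which a transposase inserts sequencing adapters into open DNA, applied to EndoC-βH3, a human beta-like cell line made from fetal pancreas. The line was immortalised with transgenes for hTERT and the SV40 large T antigen, carries the tamoxifen-activated recombinase CreER, and is labelled WT in genotype. The non-senescent group (3 libraries) was the untreated control and kept the transgenes, whereas the senescent group (3 libraries) had received 4-hydroxy tamoxifen for 3 weeks, which activates CreER and removes them. Each library was made from 100000 cells of this single line. The labels do not say whether the libraries came from separate cultures.

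Each region carries 1 value used here, the authors' mean signal, in which normalised read counts were averaged across all 6 libraries. It pools the senescent and the non-senescent cells, so no level of one group, no spread between libraries and no test of senescence can be given from it, and a region open in only one group appears at a lowered mean. The depth of each library is not given by the table. Since wide regions collect more reads, levels were compared between regions as mean signal per kb of region, and placed as percentiles among the 20094 promoter regions or the 88448 distal regions. Promoter regions had a median of 507 per kb and distal regions one of 168.

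p53 is a transcription factor that is kept low in unstressed cells and drives cell-cycle arrest, senescence or death when DNA is damaged or oncogenes are active. The kinase ATM senses double-strand breaks and activates the kinase CHEK2, and both phosphorylate p53. MDM2 is the ubiquitin ligase that marks p53 for destruction, MDM4 is its partner and blocks the activation domain of p53, and PPM1D (WIP1) is a phosphatase that reverses the damage signal. MDM2 and PPM1D are themselves induced by p53, which closes feedback loops. TP63 and TP73 encode the relatives p63 and p73. Both genes have an upstream promoter for forms with the activation domain (TA) and an internal promoter for shortened forms (ΔN) that can oppose p53. p63 is best known from the basal layer of squamous epithelium. SV40 large T antigen binds p53 and inhibits it.

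The promoters of the 5 regulators were open and those of the family members TP63 and TP73 had no region or only weak ones. The strongest promoter region of ATM lay at percentile 96.3 of all promoter regions, followed by CHEK2 at 93.5, MDM4 at 90.6, PPM1D at 74.4 and MDM2 at 64.5. TP73 reached percentile 16.5 with its strongest promoter region, and TP63 had 0 promoter regions. Over the 6 genes with a promoter region, the median of the strongest was at percentile 82.5, beside 63.3 over the 15493 protein-coding genes that had one.

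**Figure D1:**
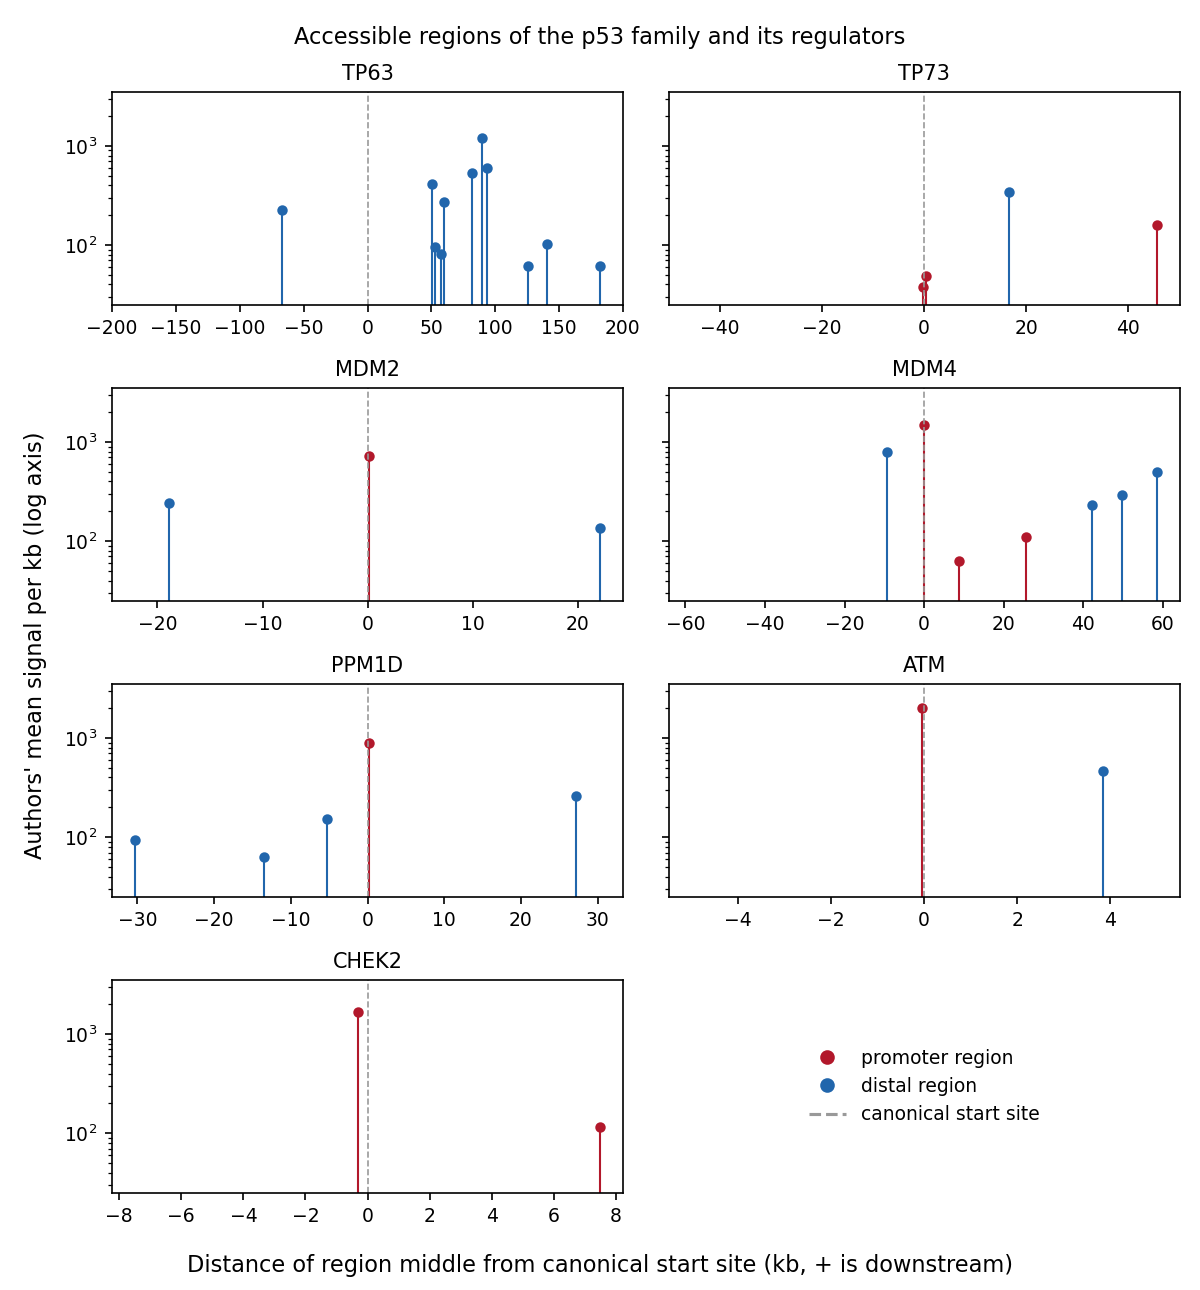
Each panel shows 1 gene, with the distance of each region's middle from the canonical start site on the x axis (kb, positive downstream) and the authors' mean signal per kb on a log y axis. Red marks promoter regions and blue marks distal regions. TP63 has 11 distal regions and no red mark, whereas each of the 5 regulators has a promoter region of 715 or more at the dashed line.

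At TP63 none of the 6 annotated start sites had a region within 2 kb. The nearest region lay 50.3 kb from the canonical TA start site at chr3:189631389, and 17.3 kb from the most upstream of the ΔN start sites at chr3:189789659. Of all protein-coding genes, 21.2% (4170) likewise had no promoter region. At TP73, 2 of the 6 start sites had none, among them the ΔN start site at chr1:3690672, whose nearest region was 7.31 kb away. The TA start sites of TP73 were flanked by a region on each side, at chr1:3652059-3652366 and chr1:3652668-3653094. The upstream one had a mean signal of 11.5 and the downstream one 20.6, or 37.5 and 48.3 per kb. These values were at percentiles 0.259 and 0.965 of promoter regions. A start site of the neighbouring gene WRAP73 lies in the same window, so the regions cannot be assigned to TP73 alone. The strongest promoter region of TP73 (chr1:3697977-3698221, exon) had a mean signal of 38.6, or 158 per kb, and lay over the internal start site of 1 transcript.

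The sequences just upstream of these 4 start sites are shown because the weak or absent promoter regions of the family lie over very different base compositions. They are printed from the hg38 genome, on the plus strand, which is the strand of both genes, with each CpG in capitals. The windows are chr3:189631139-189631388 (TP63 TA), chr3:189789409-189789658 (TP63 ΔN), chr1:3652266-3652515 (TP73 TA) and chr1:3690422-3690671 (TP73 ΔN).
TP63 TA: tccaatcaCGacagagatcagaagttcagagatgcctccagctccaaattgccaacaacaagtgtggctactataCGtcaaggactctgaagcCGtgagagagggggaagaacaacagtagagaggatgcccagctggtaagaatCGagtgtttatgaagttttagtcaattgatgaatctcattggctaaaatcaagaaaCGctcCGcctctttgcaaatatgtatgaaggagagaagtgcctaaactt
TP63 ΔN: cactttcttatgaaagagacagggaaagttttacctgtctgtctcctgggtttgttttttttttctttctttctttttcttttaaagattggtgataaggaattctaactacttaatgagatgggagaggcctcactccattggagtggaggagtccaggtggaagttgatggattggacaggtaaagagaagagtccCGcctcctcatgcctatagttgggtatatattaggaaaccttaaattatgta
TP73 TA: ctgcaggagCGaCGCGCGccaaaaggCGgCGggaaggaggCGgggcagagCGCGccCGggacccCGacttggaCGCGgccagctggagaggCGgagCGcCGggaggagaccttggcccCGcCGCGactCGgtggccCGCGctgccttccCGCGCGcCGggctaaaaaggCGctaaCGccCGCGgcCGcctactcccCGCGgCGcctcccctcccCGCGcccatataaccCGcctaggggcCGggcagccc
TP73 ΔN: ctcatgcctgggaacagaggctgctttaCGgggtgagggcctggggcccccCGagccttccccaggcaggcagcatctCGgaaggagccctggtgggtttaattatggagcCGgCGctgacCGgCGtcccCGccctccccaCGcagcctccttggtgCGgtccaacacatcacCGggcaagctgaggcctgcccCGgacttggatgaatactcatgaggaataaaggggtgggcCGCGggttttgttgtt

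The TA promoter of TP73 held 38 CpGs in 250 bases and the ΔN promoter 14, against 6 and 1 at TP63. When all protein-coding promoters were ranked by the CpG ratio (observed over expected CpG) of the 300 bases around the canonical start site, a region overlapped these 300 bases in 13.1% of the lowest quintile, 57.1% of the next and 94.3% of the highest. TP63, with a ratio of 0.491, fell in the second quintile, and TP73, with 1.06, in the highest. Both values are for TA start sites. The ΔN start sites were not ranked, and their ratios were 0.093 to 0.153 at TP63 and 0.536 at TP73. TP73 had the lowest signal per kb of the 3707 promoters in the highest quintile with a region over these bases, against a median of 710.0 for them. ATM and PPM1D, also in the highest quintile with ratios of 1.03 and 1.07, had 2028 and 899.7 per kb. The GC content of the TP73 window was 78.7%, the highest among the 7 genes, beside 74.7% for MDM2, 71.0% for PPM1D and 64.3% for ATM. Its part in the low signal was not tested.

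**Figure D2:**
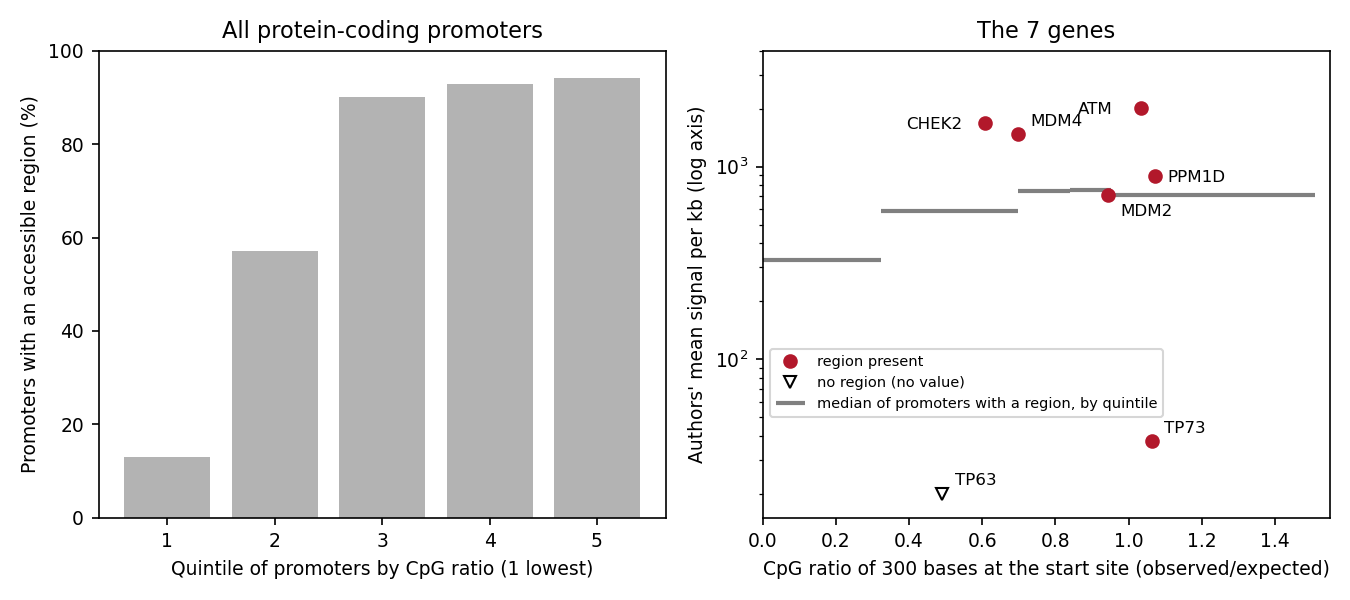
The left panel shows the share of protein-coding promoters with an accessible region over the 300 bases at the canonical start site (%, bars) in each quintile of the CpG ratio. The right panel shows the 7 genes by CpG ratio (x axis) and authors' mean signal per kb (log y axis), with grey lines at the median of each quintile. TP73 lies at 37.5, far under the line at 710.0, and TP63 had no region.

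TP63 had 11 distal regions under the limit of 100 kb, a count that 4.84% of protein-coding genes reached and against a median of 1. The count rests on that rule, since it was 3 with a limit of 50 kb and 5 when start sites of all genes, and not only protein-coding ones, were considered. Among the 4170 genes without a promoter region, 43 (1.03%) had 11 or more. The outermost start sites of TP63 are 158 kb apart. The shares above were not adjusted for gene length or for the distance to neighbouring genes. Of the 11 regions, 9 lay between the TA and the ΔN start sites, 10 lay in introns of TP63 and 1 was intergenic, 67.4 kb upstream. They ranged in mean signal from 13.2 to 858, and 4 of them were over percentile 80 of distal regions while 3 were under percentile 20.

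The strongest of them, at chr3:189720552-189721265, was 89.5 kb downstream of the canonical start site. Its mean signal was 858, or 1204 per kb, which is percentile 97.2 of distal regions, and it held 46.9% of the summed mean signal of the TP63 regions. It was flanked by chr3:189712940-189713403 (mean signal 250, percentile 87.4) and chr3:189724500-189724801 (mean signal 178, percentile 89.0), so that the 3 highest in signal per kb were neighbours. The next was chr3:189681641-189682030, with a mean signal of 162. The central 300 bases of the strongest region (chr3:189720759-189721058, plus strand) are shown because it is the most open stretch of a gene without a promoter region. Capitals mark a FOXA motif (TGTTTAC or its reverse complement) and an NF-Y motif (CCAAT or its reverse complement).
TP63 distal: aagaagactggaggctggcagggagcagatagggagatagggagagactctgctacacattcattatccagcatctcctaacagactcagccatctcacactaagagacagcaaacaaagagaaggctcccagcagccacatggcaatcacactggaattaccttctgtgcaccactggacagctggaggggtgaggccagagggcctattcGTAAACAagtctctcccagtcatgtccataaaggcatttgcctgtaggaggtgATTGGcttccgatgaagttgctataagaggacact

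TP73 had 1 distal region (chr1:3668736-3669404), in its intron 16.6 kb downstream of the canonical start site. Its mean signal of 231, or 346 per kb, was higher than at any promoter region of the gene. RefSeq places the lncRNA TP73-AS3 over part of it.

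MDM2, the ligase, had a single promoter region that spanned both of its known promoters. It ran over chr12:68807425-68809164, with a mean signal of 1243, or 715 per kb, and covered 6 of the 8 start sites, the other 2 lying 48 and 62 bases past its end. The upstream start sites belong to the constitutive promoter and those from chr12:68809002 on to the internal promoter that responds to p53. The table gives 1 value for the whole region and cannot separate the promoters. The 250 bases before chr12:68809002 (chr12:68808752-68809001, plus strand) are shown because they hold the closest match to a p53 site without a spacer in the regions of the 7 genes. Capitals mark that match and, before it, an AP-1 motif (TGANTCA).
MDM2 internal promoter: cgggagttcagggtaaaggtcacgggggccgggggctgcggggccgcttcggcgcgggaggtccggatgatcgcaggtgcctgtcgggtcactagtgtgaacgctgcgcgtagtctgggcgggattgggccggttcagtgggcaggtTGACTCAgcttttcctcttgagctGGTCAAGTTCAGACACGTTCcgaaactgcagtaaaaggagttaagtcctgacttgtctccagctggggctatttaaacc

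The 2 distal regions of MDM2 were weaker. The one 18.9 kb upstream, in an intron of SLC35E3, had a mean signal of 166 (percentile 65.4), and the one 22.1 kb downstream, in its own intron, had 47.1 (percentile 39.5).

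MDM4, the partner of MDM2, had 3 promoter regions, a number reached by 7.21% of protein-coding genes. The region over its canonical start site (chr1:204515865-204516975) had a mean signal of 1632, or 1471 per kb. The 2 at internal start sites were faint. They lay in introns, at chr1:204525056-204525254 with a mean signal of 12.4 and at chr1:204541754-204542144 with 43.3, which placed them at percentiles 2.53 and 9.64 of promoter regions.

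The 4 distal regions of MDM4 all lay outside protein-coding genes. The strongest, 9.30 kb upstream at chr1:204506188-204508024, had a mean signal of 1449.9, or 789.7 per kb, at percentile 93.3. RefSeq (GRCh38.p14) places the lysine tRNA genes TRK-TTT3-1 (chr1:204506527-204506599) and TRK-TTT3-2 (chr1:204507030-204507102) inside it. In the whole table, 200 of 443 tRNA genes (45.1%) had a region over them, and the 106 distal regions with a tRNA gene had a median at percentile 77.4. Assignment of this region to MDM4 rests only on its being the nearest protein-coding start site. The middle of the region (chr1:204506957-204507256, plus strand) is shown with TRK-TTT3-2 in capitals.
MDM4 distal: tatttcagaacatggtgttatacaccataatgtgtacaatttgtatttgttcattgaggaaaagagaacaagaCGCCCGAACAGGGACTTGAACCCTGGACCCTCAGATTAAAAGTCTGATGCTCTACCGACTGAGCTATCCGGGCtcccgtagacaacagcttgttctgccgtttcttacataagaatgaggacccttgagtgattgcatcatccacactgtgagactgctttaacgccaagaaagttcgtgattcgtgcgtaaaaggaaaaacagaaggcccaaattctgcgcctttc

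The other distal regions of MDM4 lay 42.2, 49.7 and 58.4 kb downstream, with mean signals of 90.4, 214 and 559 that rose with the distance from the gene. The 2 farther ones overlapped the lncRNA LRRN2-AS1 in RefSeq.

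PPM1D, the phosphatase, had 1 promoter region (chr17:60599414-60601382), the widest among the 7 genes at 1968 bases, with a mean signal of 1771, or 899.7 per kb. It covered all 3 start sites. Its 4 distal regions had mean signals of 32.3, 16.8, 39.6 and 79.96. The first 3 lay upstream, outside protein-coding genes, and 2 of these (chr17:60569721-60570067 and chr17:60586497-60586765) overlapped the lncRNA LINC01999 in RefSeq. The strongest, 27.2 kb downstream in its own intron, was at percentile 68.4 of distal regions.

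ATM and CHEK2, the kinases, had the strongest promoter regions of the 7 genes, and both shared them with a gene transcribed the other way. The region of ATM (chr11:108222317-108223712) had a mean signal of 2829.6, or 2028 per kb, and covered 9 of its 12 start sites as well as that of NPAT, a regulator of histone genes. Between the most upstream start site of ATM and the canonical one of NPAT lie 428 bases. The 300 of these bases nearest to ATM (chr11:108222767-108223066, plus strand) are shown as the most open promoter of the 7 genes. Capitals mark 2 SP motifs (GGGCGG) and an NF-Y motif.
ATM and NPAT: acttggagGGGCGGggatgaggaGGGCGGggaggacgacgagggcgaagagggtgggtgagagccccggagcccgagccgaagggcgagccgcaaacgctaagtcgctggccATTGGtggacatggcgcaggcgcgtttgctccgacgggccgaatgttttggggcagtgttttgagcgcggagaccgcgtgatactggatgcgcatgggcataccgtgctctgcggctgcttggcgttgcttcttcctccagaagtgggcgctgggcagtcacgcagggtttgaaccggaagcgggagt

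The region of CHEK2 (chr22:28741555-28742693) had a mean signal of 1917, or 1685 per kb, and also covered a start site of HSCB, which encodes a cochaperone of iron-sulfur cluster assembly. Here 200 bases lie between the start sites of the pair. The signal of a shared region cannot be divided between its genes. A second promoter region of CHEK2 lay in an intron 7.48 kb downstream (chr22:28734023-28734651), near the start sites of 2 transcripts, with a mean signal of 72.8, at percentile 10.4. The 3 start sites farthest downstream, at chr22:28711931 to chr22:28712146, had none. CHEK2 had 0 distal regions, and ATM had 1, in an exon 3.84 kb downstream of the start site, with a mean signal of 78.8 over only 170 bases, or 463 per kb.

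**Figure D3:**
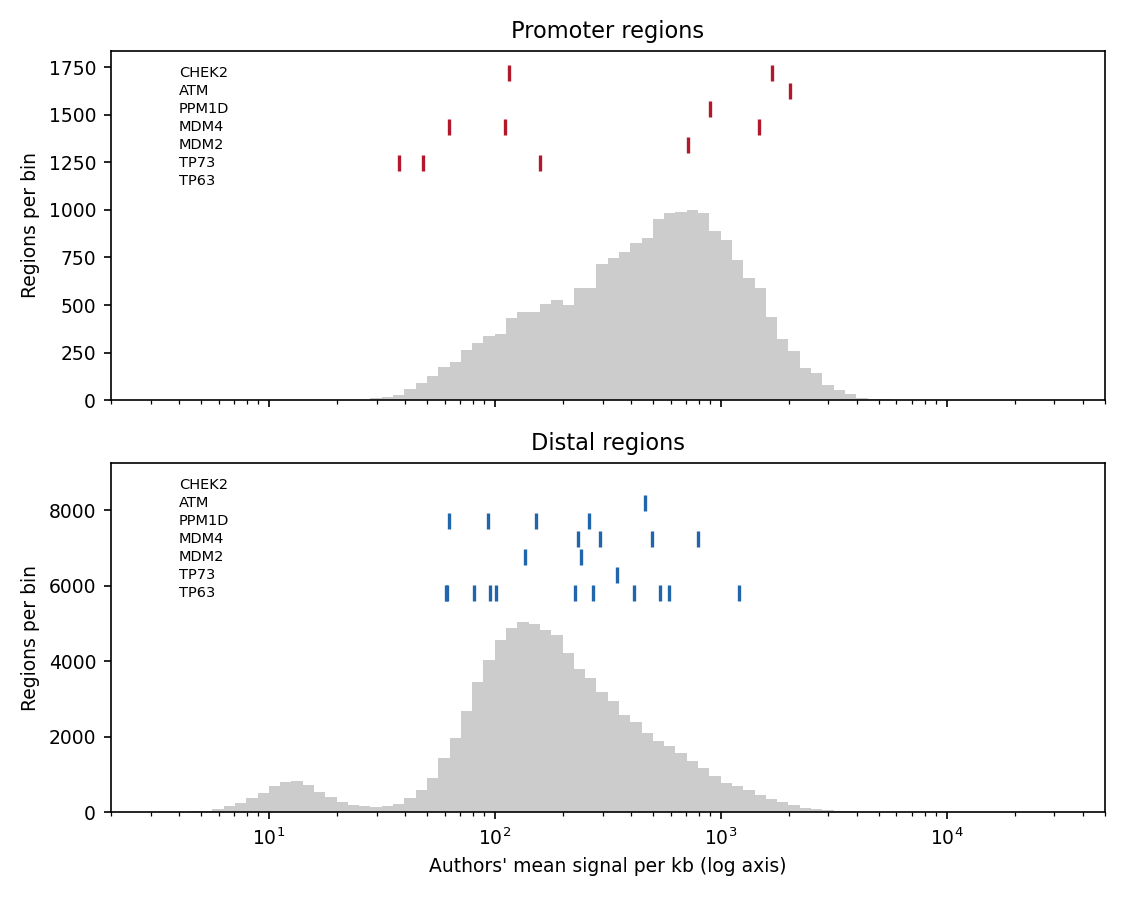
Grey histograms show the authors' mean signal per kb (log x axis) of all promoter regions (top) and all distal regions (bottom), with the number of regions per bin on the y axis. Coloured ticks mark the regions of the 7 genes, 1 row per gene. The promoter ticks fall into 5 between 715 and 2028 and 6 between 37.5 and 158.

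The promoter regions of the 7 genes thus fell into separate levels. The 5 at the main start sites of the regulators had 715 to 2028 per kb. The other 6, at TP73 and at internal start sites of MDM4 and CHEK2, had 37.5 to 158 per kb and were all under percentile 20. None lay between. The 23 distal regions were spread over the whole range, from 60.9 to 1204 per kb, and their median was at percentile 65.4 of distal regions. Of these, 14 lay in introns, 8 lay outside protein-coding genes and 1 was in an exon.

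Matches to the p53 motif were sought in the 34 regions as pairs of adjacent 10-base p53 elements with the C and G of both cores (CNNG) intact and at most 3 other mismatches. The pattern reads the same on both strands. Of the 11 promoter regions, 3 held a match, against 3.47% of all promoter regions and a mean of 3.03% of promoter regions of like width (within 10%). Of the 23 distal regions, 0 held one, against 2.20% of all distal regions. The matches are printed on the plus strand with the bases that fit the motif in capitals. They lay at chr12:68808923-68808942 in MDM2, 746 bases downstream of the canonical start site, at chr17:60599720-60599739 in PPM1D, 473 bases upstream of it, and at chr22:28734177-28734196 in the weak intronic region of CHEK2.
MDM2: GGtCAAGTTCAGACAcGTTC
PPM1D: GcACTTGTTCcGGCcAGCTC
CHEK2: ccACTTGCTCAGGCcTGCTC

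The MDM2 match had 2 mismatches and the others 3. Under the rule of at most 3, a match was found in 5.28% of promoter regions as wide as that of MDM2. For those as wide as the regions of PPM1D and CHEK2 the shares were 6.46% and 2.67%. With at most 2 mismatches, the share at the width of MDM2 was 0.921%. Sequence matches do not show that p53 was bound.

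Another 10 motifs were sought on both strands, and NF-Y and SP were the most common of them at the 11 promoter regions. Since the median width of these regions was 628 bases, against 975 for all promoter regions, the mean share of promoter regions of like width is given beside that of all. The NF-Y motif was in 9, against 46.3% at like width and 54.7% of all. The SP motif was in 7 (63.6%), against 63.0% at like width and 74.9% of all. The E2F motif (TTTNNCGC) was in 5, against 19.4% at like width and 22.8% of all. The AP-1 motif was in 3, against 13.5% at like width, and the FOXA and RFX (GTTGCC) motifs were in 2 each, against 8.75% and 29.4%. The NEUROD (CAGATGG) and homeodomain (TAATTA) motifs were in 1 each, against 14.9% and 7.55%. The ETS motif (CCGGAAGT) was in 1, at MDM4, against 5.61%, and the NRF1 motif (GCGCATGC) in 0, against 4.70%. Among the 23 distal regions, the NF-Y motif was in 14, against 41.9% of distal regions of like width. The AP-1 motif was in 5, against 16.4%, and the SP motif in 4, against 11.2%. The FOXA and RFX motifs were in 3 each, against 13.1% and 18.6%, and the NEUROD and homeodomain motifs in 2 each, against 18.4% and 14.2%. The E2F motif was in 1, against 4.15%, and the ETS and NRF1 motifs in 0, against 0.431% and 0.621%. These counts are small and were not tested.

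Of 30 other genes of the pathway, which act in damage sensing, in p53 turnover or as its cofactors, 30 had a promoter region. Among all protein-coding genes, 15493 of 19663 (78.8%) had one. For the 30 genes the median of the strongest was at percentile 78.7, beside 63.3 over all protein-coding genes with one. The most open was MDC1, the adaptor that binds marked histones at breaks, at percentile 99.4. The least open was TP53BP2, a p53-binding protein that favours apoptosis, at 34.0. The kinases ATR and CHEK1, which act beside ATM and CHEK2 when replication stalls, were at 84.9 and 61.9.

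The labelled cell type was checked at promoters. Over all protein-coding genes, 78.8% had a promoter region. All 11 beta cell genes looked at had a promoter region, with a median at percentile 91.2 and a range from 49.9 (KCNJ11) to 98.8 (INS). Of 4 blood cell genes 1 had one, of 3 endothelial genes 1 and of 3 acinar genes 2, of which CPA1 reached percentile 87.2. KRT5, KRT14 and DSG3, genes of the squamous epithelium in which p63 is a defining factor, had 0 promoter regions among them.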

How the data were processed

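ATAC-seq was carried out in 3 senescent and 3 non-senescent libraries of EndoC-βH3 cells, grouped by their labels. Per the study's methods, the authors trimmed reads (Trim Galore), mapped them onto hg38 (Bowtie2), left out mitochondrial reads and duplicates, corrected positions for the transposase offset, called peaks with MACS2 and counted reads under the union of peaks. The mean signal in the deposited table is the authors' average of counts over DESeq2 size factors across all libraries. The table's other 5 columns hold the authors' own comparison of the groups (fold change, its standard error, test statistic, p-value and adjusted p-value). They were not used, so senescent and non-senescent cells were not compared, no test was run and no error can be given.

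Start sites were taken from GENCODE 44 and tRNA and lncRNA genes from RefSeq (GRCh38.p14), both on the same build as the table, whose regions lie within its chromosomes. Coordinates of regions are printed as the table gives them, and those of sequences are counted from 1. Percentiles rank the signal per kb among regions of the same class. The canonical start site is that tagged by Ensembl. Motifs were exact matches except for p53, whose element is the published consensus. Regions, motifs and lists were processed with Python 3.11.15, pandas 2.3.3, pysam 0.24.0 and samtools 1.23.1, and the steps were tested on simulated data. Named are the 7 genes, the genes that share their promoter regions, the strongest distal region of each, and the first and last of the other regulators. ATR, CHEK1, CPA1, INS and KCNJ11 were named after their values were seen. Genes, lists and motifs were chosen with earlier results of these data known. Alternatives were other windows, distance limits, start sites, signal limits and motif rules.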

Additional observations from a re-analysis of the deposited data

How the results depend on the processing

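Of 16 alternatives, 6 left the value within the set limit. For counts the limit was a ratio of 1.5, and for percentiles the exact 95% binomial interval of the rank. That interval does not measure the spread of a median over only 6 genes or 23 regions. When a mean signal of at least 50 was required, 6 promoter regions and 15 distal regions remained, and TP73 then had 0 promoter regions. Distal regions numbered 15 with a limit of 50 kb, which left TP63 with 3, and 12 with start sites of all genes, which left TP63 with 5, MDM4 with 1 and MDM2 and TP73 with 0, since a start site of another gene was then nearer. Without division by width, the promoter region of PPM1D (percentile 90.3) ranked above the strongest of MDM4 (88.2), and that of MDM2 was at 79.8. The median percentile of the strongest promoter regions was then 89.2 and that of the distal regions 54.8. With a window of 0.5 kb the former was 80.1, and with a limit of 50 kb the latter was 64.2. With at most 2 mismatches, 1 region held a p53 match, that of MDM2. In the 300 bp around the middle of each region, 1 region held a match. None of the printed matches lies wholly within those bases. With at most 2 mismatches and a spacer of 0 to 13 bases, 4 regions held one, but not the same ones. MDM2 and PPM1D held one under both rules, but the printed PPM1D match, with 3 mismatches, no longer counted. The PPM1D match under this rule was a different pair of elements, with 2 mismatches and a spacer of 4. CHEK2 lost its own match, and the main promoter region of MDM4 gained one with 2 mismatches and a spacer of 4. The strongest distal region of TP63 gained one with a spacer of 5 and 1 mismatch, the fewest of the 4 regions. The 4 regions are 3 of 11 promoter and 1 of 23 distal regions, against 8.52% and 6.27% of all regions of each class. The search of 300 bp for the other motifs was added after seeing the data. No paired analysis was possible because the value used pools all libraries, and for the same reason no library could be left out.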
